A study of Mus musculus with 24 samples.

Results

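The genes of the major histocompatibility complex (MHC) and of antigen presentation were followed in mouse kidney after obstruction of 1 ureter, in libraries labelled as knockout or wild type for Pld4. The members are all symbols of the deposited counts that begin with H2-, plus Cd74, B2m, Ciita, Nlrc5, Tap1, Tap2, Tapbp, Psmb8, Psmb9 and Psmb10. These are 54 of 23955 symbols: 34 of class I, 12 of class II, 6 of antigen processing and 2 genes of the same chromosomal region that present no antigen, H2-Ke2 and H2-Ke6. Enough reads for a test were found for 35 members, of which 16 belong to class I, 11 to class II, 6 to processing and 2 to the region.

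The study comprised 24 kidney libraries in 6 groups of 4, PLD4-/- (KO) and PLD4+/+ (WT), each sampled as controls (day 0) and 5 or 10 days after unilateral ureteral obstruction (UUO). In UUO a single ureter is tied off, and the operation is widely used to study renal scarring. Pld4 encodes a member of the phospholipase D family. Age, sex, strain, the design of the allele and the deleted part of the gene are not given in the labels, nor is it said whether the libraries of a group came from separate animals. If they did not, the p-values measure only the spread between these samples.

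MHC class I molecules are heavy chains, encoded by H2-K, H2-D and the H2-Q, H2-T and H2-M genes, that pair with beta-2-microglobulin (B2m) and show peptides from inside the cell to CD8 T cells. Those peptides are cut by the proteasome, whose subunits Psmb8, Psmb9 and Psmb10 replace constitutive counterparts after exposure to interferon, and are pumped into the endoplasmic reticulum by Tap1 and Tap2. Class II molecules (H2-A and H2-E chains) are made mainly by macrophages, dendritic cells and B cells, are escorted by the invariant chain Cd74 and are loaded with peptide by H2-DM under the restraint of H2-O. Nlrc5 and Ciita are the related coactivators of class I and class II genes, and both act through promoter elements called the X and Y boxes.

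Some members of both classes have promoter letters in common. RefSeq windows (GRCm38.p6, 250 bases before to 50 after the gene start) were matched by symbol for 37 of the 54 members and 24 of the 35 tested. They were searched on both strands for TGANG, the core of the second X box, followed 15 to 35 bases later by ATTGG, the core of the Y box. The 8 stretches below carry the pair, which is in capitals, and they belong to members whose levels are described further on.
H2-K1, chr17:34000354-34000413, strand -: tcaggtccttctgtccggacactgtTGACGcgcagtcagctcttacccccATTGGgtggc
H2-D1, chr17:35262965-35263027, strand +: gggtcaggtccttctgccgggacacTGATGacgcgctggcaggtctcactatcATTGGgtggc
B2m, chr2:122147584-122147643, strand +: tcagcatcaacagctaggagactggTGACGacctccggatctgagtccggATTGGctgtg
H2-M3, chr17:37270160-37270222, strand +: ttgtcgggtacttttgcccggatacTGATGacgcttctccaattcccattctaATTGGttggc
H2-Aa, chr17:34287862-34287922, strand -: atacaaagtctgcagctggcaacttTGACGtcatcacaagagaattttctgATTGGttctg
H2-Eb1, chr17:34305756-34305817, strand +: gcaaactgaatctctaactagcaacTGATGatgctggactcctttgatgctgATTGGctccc
H2-DMb1, chr17:34153077-34153139, strand +: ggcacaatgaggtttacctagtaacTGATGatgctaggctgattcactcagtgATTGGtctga
H2-DMb2, chr17:34145109-34145168, strand +: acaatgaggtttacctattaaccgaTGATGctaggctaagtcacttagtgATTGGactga

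The pair was present in 6 of 10 class I windows (B2m, H2-D1, H2-K1, H2-M3, H2-Q2 and H2-Q4), in 6 of 8 class II windows (H2-Aa, H2-DMb1, H2-DMb2, H2-Eb1, H2-Eb2 and H2-Ob), in 0 of 5 processing windows and in 4.57% of all 32851 windows. The 2 elements stood 20 to 23 bases apart in the 8 stretches printed and 17 to 31 bases apart over all 12 pairs. The letters TTTCACTTC, an interferon response element of class I promoters, were found in 5 of 10 class I windows (H2-D1, H2-K1, H2-M3, H2-Q10 and H2-Q4), in none of the class II or processing windows and in 0.505% of all windows. ATTGG alone is common, at 37.4% of all windows. Tap1 and Psmb9 lie head to head, and their windows overlap by 275 bases. A match is a description of letters and not evidence of binding in these kidneys.

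Total counts per library ran from 9800888 to 22542866. Pld4 itself was counted in every library, at 6.70 to 12.6 CPM (counts scaled to library size) in KO and 5.10 to 8.25 in WT kidneys at day 0, 13.4 to 32.6 in KO and 46.6 to 50.9 in WT at day 5, and 24.3 to 50.3 in KO and 54.6 to 117 in WT at day 10. At day 0 it was thus not lower in the libraries labelled KO. At day 5 and day 10 every library labelled KO lay below every WT library. KO below means the libraries labelled KO. Markers of kidney tubule were high at day 0, with a summed level of 5 proximal tubule genes of 9404 to 14638 CPM in KO and 13491 to 16704 in WT. On the second principal component WT day 10 replicates 2 and 3 stood apart from the other 22 libraries. They also held S100a8, a neutrophil gene, at 991 and 2141 CPM, against at most 3.83 CPM in any other library. CPM uses TMM factors and serves to compare 1 gene between libraries. FPKM is the authors' value per transcript length and serves to compare genes. Fold changes are log2 values ± SE, adjusted p values come from the edgeR quasi-likelihood fit of 15080 genes, and "rose", "fell" or "called" means an adjusted p under 0.05.

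Before obstruction the KO kidney already held more MHC transcript than the WT kidney. At day 0, 23 of 35 members were called higher in KO and none lower, beside 3.65% of all genes tested called higher and 0.531% called lower. These were 8 of 16 class I members, 10 of 11 class II members, 5 of 6 processing genes and neither of the 2 other genes of the region. The median log2 fold change was 1.54 in class I, 2.08 in class II and 1.60 in processing, and 0.01 over all genes tested. All 4 KO libraries lay above all 4 WT libraries for 29 of the 35 members, as they did for 10.5% of all genes. In RNA from whole kidney, more cells of a type and more RNA per cell cannot be told apart.

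**Figure D1:**
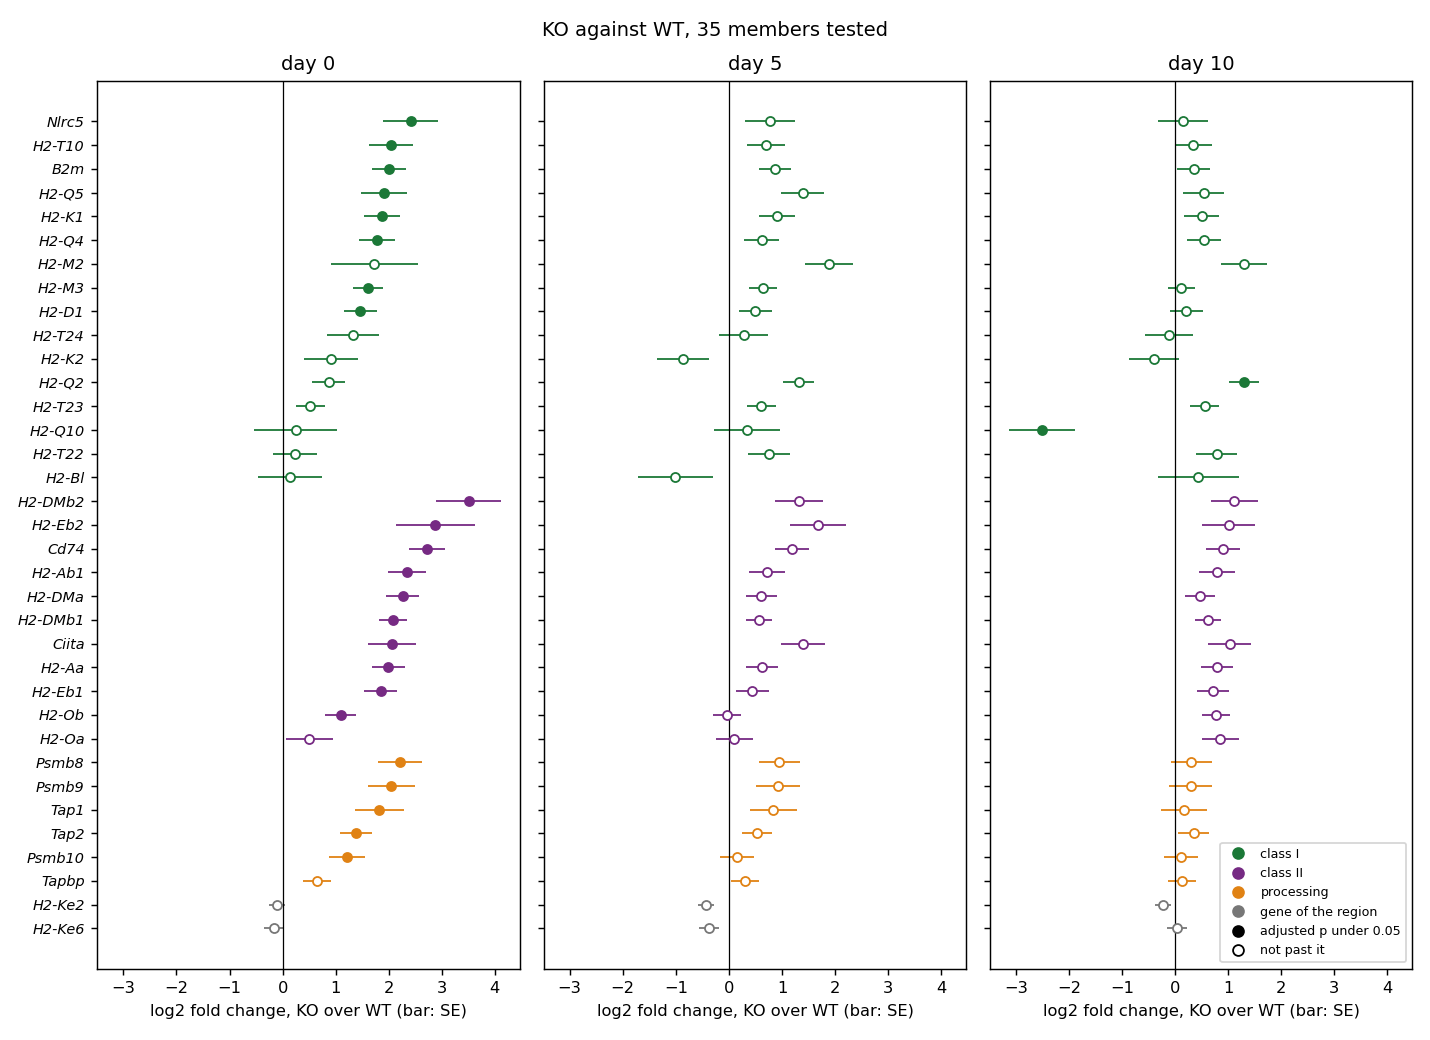
Log2 fold change of KO over WT for the 35 tested members at day 0, day 5 and day 10, with bars of 1 SE and filled points for an adjusted p under 0.05. At day 0, 23 points are filled, at day 5 none, and at day 10 only H2-Q2 (1.29) and H2-Q10 (-2.51).

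The classical class I heavy chains differed severalfold. H2-K1 had 1165, 917, 662 and 929 CPM in the KO libraries, against 189, 220.0, 229.9 and 364 in WT, a log2 fold change of 1.87 ± 0.35 (adjusted p = 0.0028). H2-D1 had 366, 292, 210.5 and 264 CPM in KO and 86.3, 92.5, 99.5 and 132 in WT, 1.46 ± 0.32 (adjusted p = 0.00861). The light chain B2m had 1324, 1204, 739.6 and 1174 CPM in KO and 237, 242, 275 and 353 in WT, 2.0 ± 0.32 (adjusted p = 0.000853). In each of these genes the lowest KO library was above the highest WT library, which was WT replicate 4 every time. Nlrc5, the class I coactivator, was at 51.7, 43.7, 35 and 40.9 CPM in KO against 5.88, 6.63, 6.10 and 13.6 in WT, 2.41 ± 0.51 (adjusted p = 0.00809).

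Nonclassical class I chains were divided in whether they passed the test. H2-M3, which presents formylated peptides, had 10.6, 12.4, 9.29 and 11.2 CPM in KO and 3.20, 3.23, 3.95 and 3.87 in WT, 1.61 ± 0.28 (adjusted p = 0.00198). H2-Q4 was found at 106, 99.2, 75.3 and 96 CPM in KO and 22.9, 26.2, 24 and 36.9 in WT, 1.77 ± 0.34 (adjusted p = 0.0036). For H2-T10, a ligand of gamma-delta T cells, the values were 5.84, 3.82, 4.27 and 3.66 CPM in KO and 0.778, 0.680, 1.17 and 1.63 in WT, 2.04 ± 0.41 (adjusted p = 0.00485). None of these 3 genes had KO and WT libraries that overlapped. H2-Q5 did not overlap either, at 7.13, 5.85, 6.09 and 6.39 CPM in KO and 1.64, 1.70, 1.26 and 2.15 in WT, 1.91 ± 0.44 (adjusted p = 0.013). H2-T10 and H2-Q5 are uncertain, since 67.1% of the 50-base stretches of H2-T10 and 63.6% of those of H2-Q5 were unique among GENCODE transcripts, against 90.4% for H2-K1 and 100% for B2m. H2-T23, which encodes Qa-1 and is the ligand of NKG2A receptors, was at 214, 159, 149.5 and 144 CPM in KO and 108, 111, 105 and 141 in WT without passing the test, 0.52 ± 0.27 (adjusted p = 0.379). H2-T24, H2-K2, H2-M2, H2-Q2, H2-T22, H2-Q10 and H2-Bl did not pass either, with log2 values between 0.13 and 1.73. All KO libraries still lay above all WT libraries for H2-T23, H2-T24, H2-K2, H2-M2 and H2-Q2, as in 10.5% of all genes. The groups overlapped for H2-T22, H2-Q10 and H2-Bl.

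Class II had the highest median fold of the classes. H2-Aa, the alpha chain of I-A, had 464, 381, 204 and 337 CPM in KO libraries, against 54, 87.1, 89.9 and 118 in WT, 1.99 ± 0.31 (adjusted p = 0.000783). Its partner H2-Ab1 had 584, 410.0, 229 and 363 CPM in KO and 43.9, 71.8, 66.3 and 130.4 in WT, 2.34 ± 0.36 (adjusted p = 0.000619). H2-Eb1, a beta chain of I-E, had 367, 297, 184 and 301 CPM in KO and 51.5, 77.3, 80.1 and 111 in WT, 1.85 ± 0.32 (adjusted p = 0.00155). KO replicate 3 was the lowest KO library and WT replicate 4 the highest WT library for all 3 chains, and they did not meet. Cd74, the invariant chain, was at 2093, 1365, 799 and 1112 CPM in KO and 120.1, 195, 189 and 311 in WT, 2.72 ± 0.34 (adjusted p = 0.000117). Ciita, the class II coactivator, was at 26, 12.8, 13.1 and 18.6 CPM in KO and 3.03, 4.51, 2.96 and 6.45 in WT, 2.06 ± 0.45 (adjusted p = 0.0102).

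The peptide-loading genes of class II differed too. H2-DMa had 59.8, 43.2, 25.2 and 46.8 CPM in KO and 4.76, 8.50, 8.43 and 14.7 in WT, 2.26 ± 0.31 (adjusted p = 0.000269). Its beta chain H2-DMb1 had 79.6, 61.6, 40.5 and 64.1 CPM in KO and 11, 12.3, 10.9 and 23.7 in WT, 2.08 ± 0.26 (adjusted p = 0.000117). The second beta chain H2-DMb2 had 17.5, 7.40, 3.12 and 6.70 CPM in KO and 0.173, 0.595, 0.359 and 1.89 in WT, 3.50 ± 0.61 (adjusted p = 0.00171), the highest fold among the members. All WT day 0 libraries of H2-DMb2 were low, at 0.173 to 1.89 CPM, so the size of its fold is uncertain. The beta chains share sequence: 21.2% of the 50-base stretches of H2-DMb2 also occur in H2-DMb1. H2-Eb2 was low, at 1.03, 1.79, 1.29 and 1.25 CPM in KO and 0.259, 0.0850, 0.179 and 0.172 in WT, 2.88 ± 0.74 (adjusted p = 0.0268). H2-Ob, a chain of the H2-DM inhibitor H2-O, was higher by 1.09 ± 0.30 (adjusted p = 0.0373), and its partner H2-Oa did not pass, 0.50 ± 0.44 (adjusted p = 0.652). H2-Oa was the class II gene whose groups overlapped.

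In processing, Psmb8 and Psmb9, catalytic subunits of the immunoproteasome, had the highest folds. Psmb8 had 79.3, 57.2, 34 and 55.1 CPM in KO and 7.61, 12.1, 10.7 and 18.5 in WT, 2.21 ± 0.42 (adjusted p = 0.00332). Psmb9 had 36.5, 27.5, 17 and 25.9 CPM in KO and 4.84, 4.85, 6.10 and 9.97 in WT, 2.05 ± 0.44 (adjusted p = 0.00866). Psmb10 had 38.7, 28.5, 18.7 and 36.7 CPM in KO and 9.60, 11.6, 13.5 and 18.5 in WT, 1.21 ± 0.34 (adjusted p = 0.0446). All 3 subunits kept the KO libraries above the WT libraries, with the narrowest gap at Psmb10, between 18.7 CPM in KO and 18.5 CPM in WT. Tap1, one chain of the peptide pump, was at 83.7, 64.8, 48.1 and 67.8 CPM in KO and 11.2, 16.2, 16.7 and 30.7 in WT, 1.82 ± 0.46 (adjusted p = 0.0248). Tap2, the other chain, was at 87.8, 64.2, 59 and 89.6 CPM in KO and 21.4, 26, 26.8 and 40.7 in WT, 1.39 ± 0.30 (adjusted p = 0.00828). Tapbp (tapasin), which bridges the pump and class I, was at 240.2, 183, 159.8 and 202 CPM in KO and 113, 119, 128 and 143 in WT and missed the threshold, 0.65 ± 0.27 (adjusted p = 0.223). The neighbours H2-Ke2, a prefoldin subunit, and H2-Ke6, a 17-beta-hydroxysteroid dehydrogenase, had log2 values of -0.10 and -0.17, neither past the test. All 4 KO libraries were below all 4 WT libraries for H2-Ke6, as in 9.1% of all genes. H2-Ke6 is uncertain, since 70.5% of its 50-base stretches also occur in the overlapping gene Gm20427. Some calls at day 0 ended when 1 library was left out: Psmb10 (1.08 to 1.24, adjusted p = 0.0505 to 0.174) for 15 of the 24 libraries, Tap1 (1.64 to 1.81, adjusted p = 0.0577 to 0.112) without WT replicate 1, 2 or 3 or KO replicate 1 or 4, H2-Eb2 (2.66 to 3.13, adjusted p = 0.0559 to 0.084) without any 1 WT library or KO replicate 2 or 4, and Ciita (1.92, adjusted p = 0.053) and H2-Q5 (1.90, adjusted p = 0.0516) without WT replicate 1. On log2(FPKM + 1) Ciita, H2-Eb2 and H2-T10 were not called.

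Other genes of the pathway, taken from fixed lists, mostly did not pass at day 0. Of 15 other antigen presentation genes, 1 was called: Ctss, the protease that trims the invariant chain, was higher in KO by 2.18 ± 0.40 (adjusted p = 0.00278). The chaperones Calr (-0.01), Canx (-0.06) and Pdia3 (-0.01) of the endoplasmic reticulum did not pass. Of 14 regulators of MHC transcription, Irf1 (1.67 ± 0.44, adjusted p = 0.0338) and Irf8 (0.98 ± 0.24, adjusted p = 0.022) were higher. The X and Y box factors Rfx5, Rfxap, Rfxank, Nfya, Nfyb, Nfyc and Creb1 had log2 values between 0.01 and 0.22, none past the test. Among the constitutive subunits that the immunoproteasome replaces, Psmb5 was lower in KO, with -0.44 ± 0.12 (adjusted p = 0.0403), while Psmb6 (-0.22) and Psmb7 (-0.32) did not pass.

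Leukocyte genes moved with these members at day 0. Called higher in KO were 4 of 4 pan leukocyte genes, 6 of 6 T cell genes, 8 of 10 macrophage genes, 3 of 8 dendritic cell genes, 1 of 5 B cell genes and 1 of 4 NK cell genes, and none of 4 neutrophil or 5 endothelial genes. Summed over the list, pan leukocyte genes were at 106 to 152 CPM in KO and 27.3 to 45.1 in WT, and T cell genes at 19.5 to 36.1 in KO and 3.66 to 8.16 in WT. Macrophage genes were at 359 to 504 CPM in KO and 164 to 248 in WT. Dendritic cell genes were at 23.3 to 33.6 CPM in KO and 9.51 to 13.9 in WT, and B cell genes at 5.49 to 6.78 in KO and 2.58 to 4.93 in WT. NK cell genes were at 3.27 to 4.77 CPM in KO and 0.865 to 1.38 in WT, neutrophil genes at 3.43 to 5.61 in KO and 1.2 to 2.96 in WT, and endothelial genes at 308 to 404 in KO and 180.3 to 255 in WT. The ranges of none of these 8 lists overlapped between genotypes, and no leukocyte marker that was counted was at 0 in a whole group. The part of these cells in the MHC difference was not tested.

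**Figure D2:**
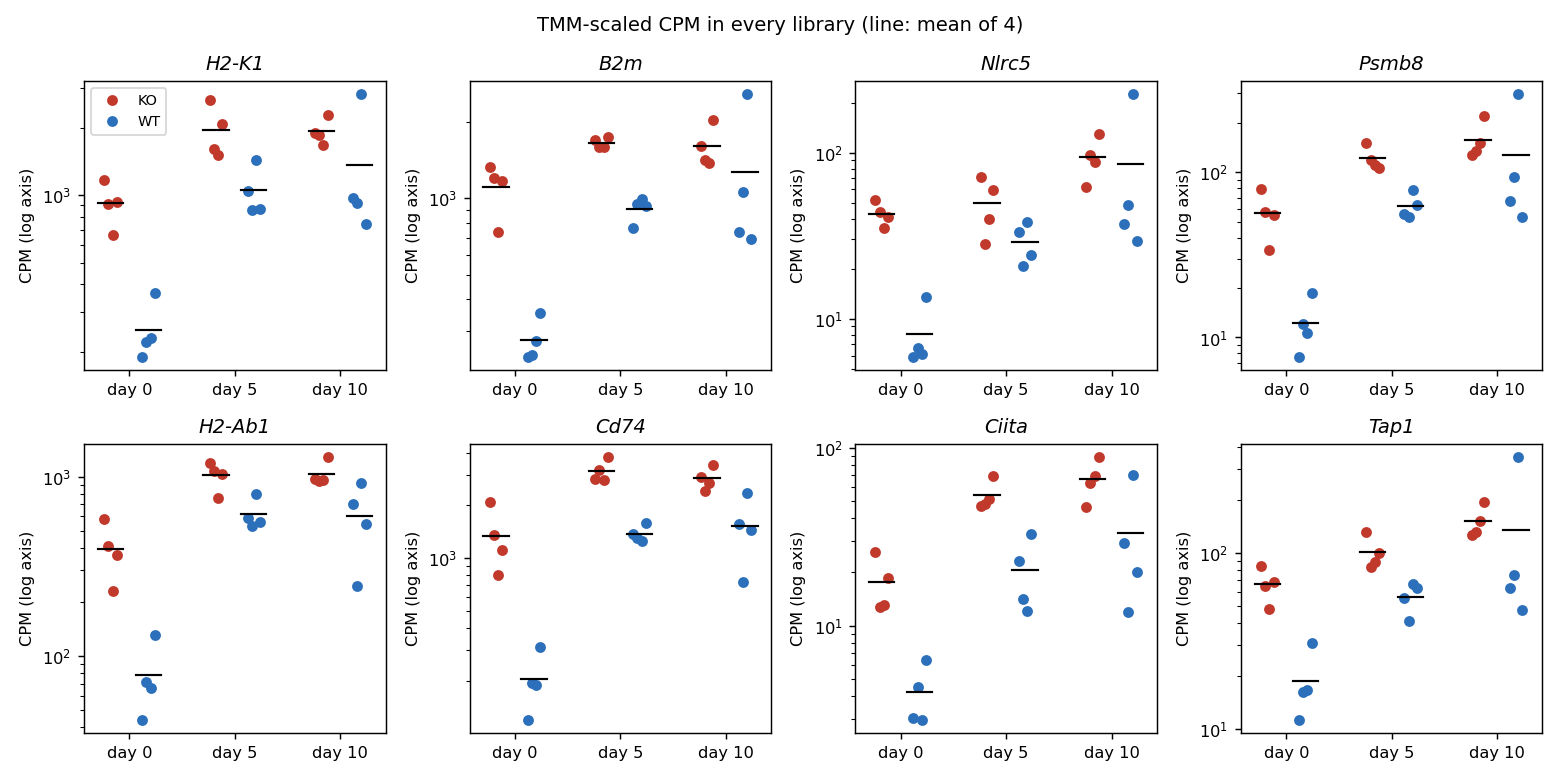
CPM on a log axis in every library for H2-K1, B2m, Nlrc5, Psmb8, H2-Ab1, Cd74, Ciita and Tap1, KO in red and WT in blue at day 0, 5 and 10, with a line at the mean of 4. For B2m the day 0 libraries lie at 739.6 to 1324 CPM in KO and 237 to 353 in WT, and WT day 10 replicate 3 lies at 2571.

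After 5 days of obstruction more members had risen in WT than in KO kidneys, a contrast that is tested further on as an interaction. In KO, 19 of 35 members rose by day 5 and 2 fell, beside 39.5% of all genes called (22.4% higher and 17% lower). They were 6 of 16 class I, 9 of 11 class II and 4 of 6 processing genes. In WT, 26 of 35 members rose by day 5 and 1 fell, beside 56.6% of all genes called (31% higher and 25.6% lower), and these held 9 class I, all 11 class II and all 6 processing genes. The medians were 0.44 in KO and 1.55 in WT for class I, 1.48 in KO and 2.76 in WT for class II, and 0.78 in KO and 1.78 in WT for processing. H2-Ke6 fell in both genotypes, with log2 changes of -0.89 ± 0.19 (adjusted p = 0.000938) in KO and -0.68 ± 0.19 (adjusted p = 0.0042) in WT, and H2-Bl fell in KO, with -2.16 ± 0.68 (adjusted p = 0.0156). Without KO day 0 replicate 3 the KO count was 13, and on log2(FPKM + 1) it was 32 of 41 members tested there. The KO rises of H2-K1 (0.92 to 0.97, adjusted p = 0.0514 to 0.0528), H2-D1 (0.67 to 0.85, adjusted p = 0.0629 to 0.116), H2-Q4 (0.66 to 0.94, adjusted p = 0.0528 to 0.135), Psmb8 (0.93 to 1.12, adjusted p = 0.0574 to 0.0996), Tap2 (0.62 to 0.84, adjusted p = 0.0509 to 0.12), Tapbp (0.65 to 0.76, adjusted p = 0.0527 to 0.0934) and H2-Eb2 (1.14 to 1.47, adjusted p = 0.0556 to 0.113) were each lost without KO day 0 replicate 3 and also without KO day 5 replicate 1, and some of them without other KO libraries. Leukocyte genes rose as well: 9 of 10 macrophage genes in both KO and WT, and 2 of 4 pan leukocyte genes in KO against 4 of 4 in WT. In KO 1 of 8 dendritic cell genes rose, against 7 of 8 in WT. None of 6 T cell genes rose in KO, against 5 of 6 in WT, none of 4 NK cell genes in KO, against 3 of 4 in WT, and 1 of 5 B cell genes in KO, against 2 of 5 in WT. Their part in the MHC rise was not tested.

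Class II had the highest median response in both genotypes. H2-Aa reached 1254, 1208, 930.1 and 1145 CPM at day 5 in KO, a rise of 1.71 ± 0.31 (adjusted p = 0.00021), and 683, 751, 916 and 609 in WT, a rise of 3.08 ± 0.32 (adjusted p = 2.12e-07). H2-Ab1 reached 1190.3, 1081, 764 and 1030.3 CPM in KO (1.36 ± 0.35) and 589, 527, 799 and 561 in WT (2.99 ± 0.37). H2-Eb1 reached 1068, 914, 699 and 886 CPM in KO (1.63 ± 0.31) and 629, 649, 842 and 508 in WT (3.04 ± 0.33). The genotypes overlapped at day 5 for H2-Ab1 and H2-Eb1, not for H2-Aa. Cd74 was at 2824, 3199.6, 2805 and 3783 CPM in KO (1.23 ± 0.32) and 1369, 1303, 1260.2 and 1580.0 in WT (2.76 ± 0.34). Ciita was at 46.7, 48.4, 51.4 and 69.1 CPM in KO (1.61 ± 0.42) and 23, 14.1, 12.2 and 32.6 in WT (2.27 ± 0.45). All 4 KO libraries were above all 4 WT libraries for both genes. The loading chain H2-DMa was at 125, 101, 84.6 and 103 CPM in KO (1.24 ± 0.29) and 63.4, 62.1, 85.6 and 59.8 in WT (2.89 ± 0.31). H2-DMb1 was at 85.1, 91.2, 73.4 and 82.9 CPM in KO, where the change did not pass (0.44 ± 0.25, adjusted p = 0.161), and at 51.2, 52.7, 62.7 and 57.5 in WT (1.95 ± 0.26). H2-DMb2 was at 56, 42.9, 33.2 and 54.2 CPM in KO (2.42 ± 0.48) and 16.5, 13.1, 23.2 and 21.4 in WT (4.60 ± 0.60). The rise of H2-DMb2 in WT was the largest among the members at day 5, from a low WT level at day 0. H2-Eb2 was at 6.06, 2.87, 1.89 and 4.02 CPM in KO (1.48 ± 0.53) and 1.01, 0.885, 1.59 and 1.14 in WT (2.67 ± 0.73).

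The class I genes differed in their day 5 response. H2-K1 reached 2650.1, 1604, 1511 and 2066 CPM at day 5 in KO (1.09 ± 0.34, adjusted p = 0.0149) and 1038, 858, 1435 and 865 in WT (2.06 ± 0.35, adjusted p = 6.31e-05). H2-D1 reached 668, 417, 408 and 523 CPM in KO (0.83 ± 0.31) and 322, 329, 515 and 259 in WT (1.80 ± 0.32). B2m was at 1702, 1588, 1599 and 1739 CPM in KO, where the change did not pass (0.58 ± 0.31, adjusted p = 0.137), and 766, 946, 990.4 and 931 in WT (1.71 ± 0.31, adjusted p = 0.000135). For B2m and H2-K1 the KO libraries stayed above the WT libraries, and for H2-D1 the groups overlapped. Nlrc5 was at 71.1, 28.3, 40.04 and 59.7 CPM in KO (0.22 ± 0.47, adjusted p = 0.742) and 33.1, 20.9, 38.3 and 24 in WT (1.85 ± 0.51, adjusted p = 0.00431). H2-M3 was at 20.5, 21.6, 19.4 and 17.6 CPM in KO (0.86 ± 0.26) and 13.7, 10.1, 14.3 and 12.6 in WT (1.83 ± 0.28). H2-Q4 was at 248, 138, 141 and 165 CPM in KO (0.88 ± 0.33) and 113, 86.3, 159.6 and 93.8 in WT (2.04 ± 0.34). H2-M3 separated the genotypes at day 5, whereas Nlrc5 and H2-Q4 did not. H2-T10 was at 7.81, 4.80, 4.07 and 4.81 CPM in KO (0.29 ± 0.36, adjusted p = 0.552) and 3.27, 3.30, 4.49 and 2.18 in WT (1.62 ± 0.41, adjusted p = 0.00216). H2-Q5 was at 10.9, 8.17, 5.67 and 6.56 CPM in KO (0.30 ± 0.40, adjusted p = 0.578) and 4.10, 2.77, 2.63 and 2.45 in WT (0.82 ± 0.44, adjusted p = 0.115). H2-Q5 passed in neither genotype. H2-M2 had the largest class I rise in both genotypes, reaching 10.6, 6.68, 5.67 and 8.43 CPM in KO (4.10 ± 0.55) and 1.55, 1.89, 3.11 and 2.0 in WT (3.95 ± 0.68). H2-T23 did not pass in either, at 0.14 (adjusted p = 0.722) in KO and 0.05 (adjusted p = 0.896) in WT.

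The processing genes rose in WT without exception. Psmb8 reached 151, 119, 111 and 106 CPM at day 5 in KO (1.11 ± 0.40, adjusted p = 0.031) and 55.8, 53.7, 78.5 and 63.6 in WT (2.36 ± 0.42, adjusted p = 0.000103). Psmb9 was at 62.6, 47.6, 39.1 and 37.3 CPM in KO, where it did not pass (0.81 ± 0.41, adjusted p = 0.124), and at 24.2, 21.6, 32 and 20.8 in WT (1.93 ± 0.44, adjusted p = 0.00104). Psmb10 was at 94.9, 65.9, 58.9 and 60.9 CPM in KO (1.19 ± 0.33) and 53.7, 52.9, 87.5 and 57.2 in WT (2.24 ± 0.34). Psmb8 and Psmb9 kept the genotypes apart at day 5 and Psmb10 did not. Tap1 was at 131, 83.5, 88.3 and 100.2 CPM in KO, where it did not pass (0.61 ± 0.44, adjusted p = 0.283), and at 55.4, 40.7, 66.1 and 63.2 in WT (1.59 ± 0.46, adjusted p = 0.00597). Tap2 was at 163, 98.6, 114 and 134 CPM in KO (0.76 ± 0.29) and 81.9, 71.4, 103 and 96.3 in WT (1.62 ± 0.30). Tapbp was at 394, 275, 306 and 339 CPM in KO (0.74 ± 0.27) and 242, 210.3, 313 and 295 in WT (1.08 ± 0.27). Of these 3 genes, Tap1 alone kept all KO libraries above all WT libraries.

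**Figure D3:**
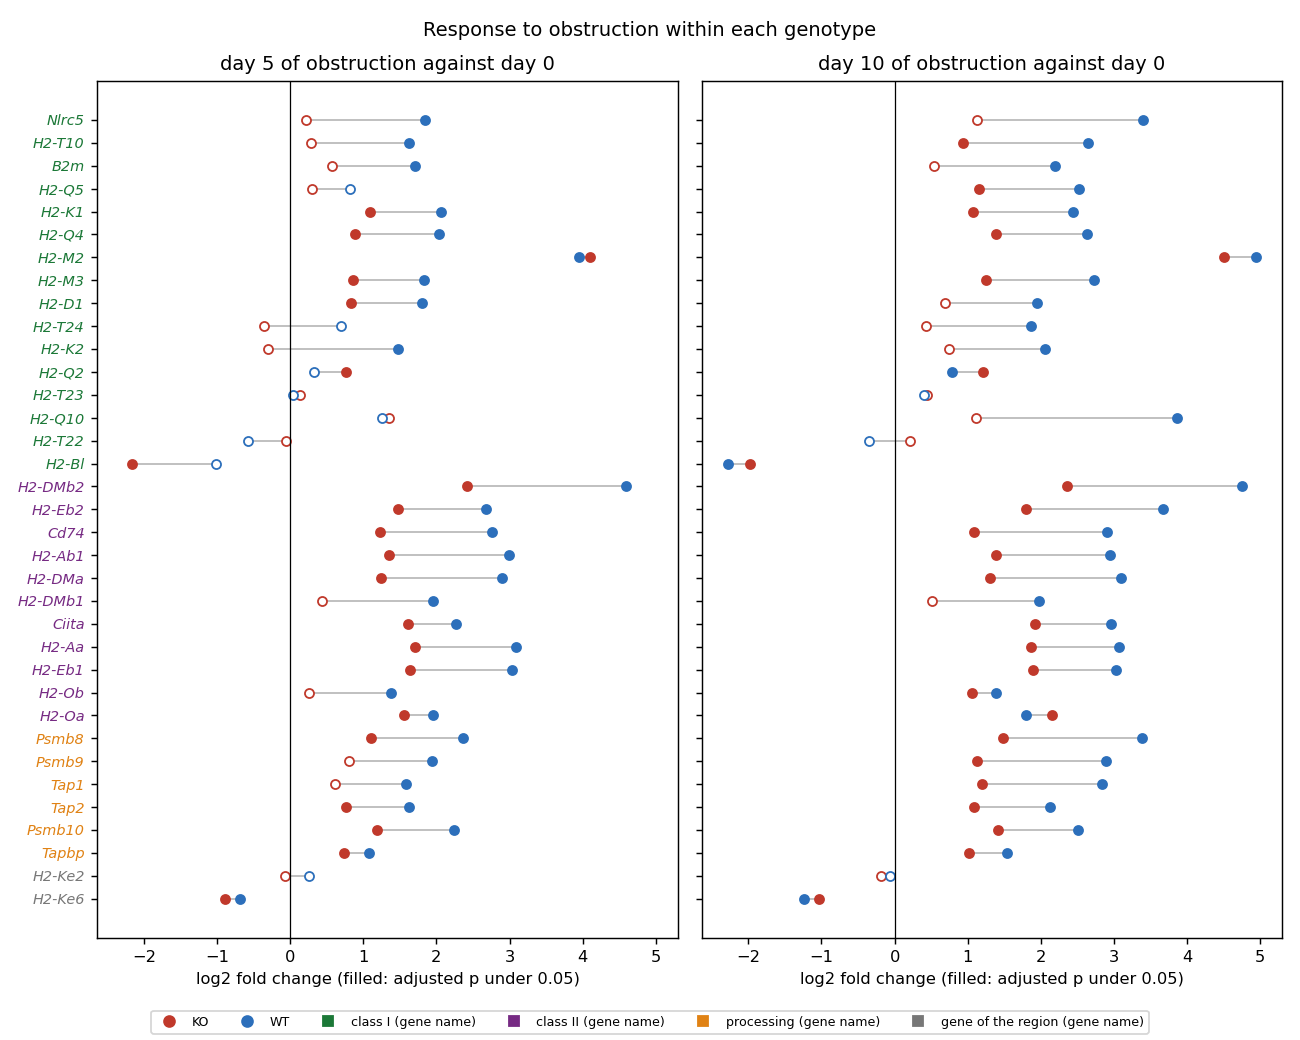
Log2 fold change of day 5 (left) and day 10 (right) against day 0 for each tested member, KO in red and WT in blue joined by a line, filled where the adjusted p is under 0.05. In class II all 11 WT points are filled at both days, and the WT point lies right of the KO point for Cd74 (1.23 in KO and 2.76 in WT at day 5).

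At day 5 the KO and WT kidneys themselves did not differ in any member past the threshold. None of 35 was called, beside 0.146% of all genes (0.0663% higher and 0.0796% lower), 17 members had an unadjusted p under 0.05, and DESeq2 called 3. The median log2 difference of KO over WT was 0.67 in class I, 0.62 in class II and 0.68 in processing, and 0.02 over all genes. The lowest adjusted p belonged to H2-Q2, 1.31 ± 0.29 (adjusted p = 0.0749). In 16 of 35 members all KO libraries lay above all WT libraries, as in 2.73% of all genes, among them B2m (0.87 ± 0.31, adjusted p = 0.275), Cd74 (1.19 ± 0.32, adjusted p = 0.204) and Psmb8 (0.95 ± 0.39, adjusted p = 0.306). For H2-Bl all KO libraries lay below all WT libraries, as in 1.86% of all genes. None of the 4 pan leukocyte genes was called at day 5, and their median log2 difference was 0.22. Their summed level was 288 to 338 CPM in KO and 245 to 285 in WT. Macrophage genes summed to 1383 to 1636 CPM in KO and 1033 to 1254 in WT, and B cell genes to 7.91 to 8.71 in KO and 5.71 to 7.67 in WT. These 3 lists were higher in every KO library than in any WT library, while the dendritic cell genes were lower, at 33.8 to 45.6 CPM in KO and 46.9 to 61.8 in WT. T cell genes overlapped, at 24.3 to 43.8 CPM in KO and 16.8 to 32.4 in WT. The part of these cells in the members' day 5 levels was not tested. Leaving out libraries gave 5 calls without WT day 5 replicate 4, 3 without WT day 10 replicate 3, 2 without WT day 10 replicate 2, 1 without KO day 0 replicate 4 or KO day 5 replicate 1, and 8 without WT day 10 replicates 2 and 3.

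At day 10 members stood above day 0 in both genotypes. In KO, 23 rose and 2 fell (54.3% of all genes called, 28.3% higher and 26% lower), with 7 of class I, 10 of class II and 6 of processing rising. In WT, 30 rose and 2 fell (68.1% of all genes called, 37.8% higher and 30.3% lower), with 13 of class I, 11 of class II and 6 of processing. The genes that fell in both were H2-Bl and H2-Ke6. Among the largest rises were H2-M2 at 4.50 ± 0.55 in KO and 4.94 ± 0.66 in WT, and H2-DMb2 at 2.36 ± 0.48 in KO and 4.75 ± 0.60 in WT. Nlrc5 had 1.13 ± 0.48 (adjusted p = 0.0502) in KO, just short of the threshold, and rose in WT by 3.40 ± 0.53 (adjusted p = 1.19e-05). Without WT day 10 replicates 2 and 3, 29 rose and 1 fell in WT.

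WT day 10 libraries were more widely spread than KO day 10 libraries. H2-K1 had 1892, 1859, 1678 and 2267 CPM in KO and 967, 922, 2817 and 746 in WT. B2m had 1609, 1421, 1372 and 2038 CPM in KO and 739, 1062, 2571 and 692 in WT. Nlrc5 had 61.8, 96.7, 88.1 and 129 CPM in KO and 37.4, 48.2, 225 and 29.5 in WT. WT replicate 3 was the highest of the 4 WT libraries for all 23 members whose values are given by library at each of the 3 days. H2-D1 had 458, 451, 413 and 502 CPM in KO and 270.4, 341, 774 and 193 in WT. H2-M3 had 20.7, 24.8, 25.4 and 32 CPM in KO and 14.6, 22, 45 and 13.4 in WT. H2-Q4 had 225, 241, 232 and 289.8 CPM in KO and 138, 103, 356 and 81.5 in WT. In these class I genes the other 3 WT libraries lay below the KO range except WT replicate 2 for H2-M3. H2-T10 had 6.41, 8.14, 7.69 and 11.6 CPM in KO and 4.27, 5.23, 13.7 and 3.65 in WT. H2-Q5 had 10.2, 12.5, 12.6 and 21.2 CPM in KO and 6.07, 5.48, 23.3 and 4.18 in WT. WT replicate 4 was the lowest WT library for all of these class I genes.

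In the processing genes WT replicate 3 was likewise the highest WT library at day 10. Psmb8 had 126, 135, 149.9 and 220.3 CPM in KO and 67, 93, 297 and 53.9 in WT. Psmb9 had 46.7, 51.2, 56.7 and 79.5 CPM in KO and 25.7, 29.9, 117 and 18.8 in WT. Psmb10 had 72, 73.5, 83.1 and 99.4 CPM in KO and 54.7, 60.8, 151 and 37.3 in WT. WT replicate 3 exceeded every KO library for each subunit. Tap1 had 126, 132, 152 and 193 CPM in KO and 63.4, 75.1, 351 and 47.2 in WT. Tap2 had 153, 152, 149.9 and 180.4 CPM in KO and 102, 78.2, 245 and 74.2 in WT. Tapbp had 378, 346, 389 and 473 CPM in KO and 254, 255, 715 and 230.0 in WT. WT replicate 4 was again the lowest.

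Class II genes had another order. H2-Aa had 1125, 1229, 1179 and 1512 CPM in KO and 860.4, 295, 1049 and 715 in WT. H2-Ab1 had 975, 946, 952 and 1288 CPM in KO and 699, 246, 921 and 542 in WT. H2-Eb1 had 958, 1052, 1028 and 1234 CPM in KO and 809, 236, 929.8 and 634 in WT. Here WT replicate 2 was the lowest and replicate 3 stayed below every KO library. Cd74 had 2921, 2429, 2689 and 3382 CPM in KO and 1572, 731, 2365 and 1443 in WT. Ciita had 46.4, 63.5, 69.6 and 88.7 CPM in KO and 29.2, 11.9, 70.5 and 20.1 in WT. H2-DMa had 99.3, 98.2, 105 and 130.5 CPM in KO and 84.1, 51.9, 122 and 54.7 in WT. WT replicate 2 was the lowest for 8 class II genes in all: these 6, H2-DMb1 and H2-Eb2. H2-DMb1 had 83.1, 75.3, 82 and 109 CPM in KO and 62.6, 31.5, 76.7 and 56.7 in WT. H2-DMb2 had 40.9, 39, 41.6 and 56.9 CPM in KO and 18.1, 11.4, 42.1 and 11.1 in WT. H2-Eb2 had 3.12, 4.25, 4.03 and 7.17 CPM in KO and 1.09, 0.710, 6.41 and 1.11 in WT. Beside this, Ifng, the cytokine interferon-gamma, had 93 counts in WT day 10 replicate 3 and at most 18 in any other library. The T cell list summed to 136 CPM in that library and to 24.6 in replicate 2, and the neutrophil list to 6349 CPM and 3685 CPM. Macrophage genes summed to 1364, 1753, 1792 and 1929.7 CPM in KO and 1625, 5186, 8338 and 1497 in WT, and pan leukocyte genes to 338, 359.6, 434 and 499.5 in KO and 324, 874, 1512 and 280.4 in WT. Proximal tubule genes summed to 3463, 1625, 1454 and 3357 CPM in KO and 1787, 121, 541 and 4781 in WT. WT replicates 2 and 3 were the highest libraries of the 8 for macrophage and pan leukocyte genes and the lowest for proximal tubule genes. Their part in these levels was not tested.

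**Figure D4:**
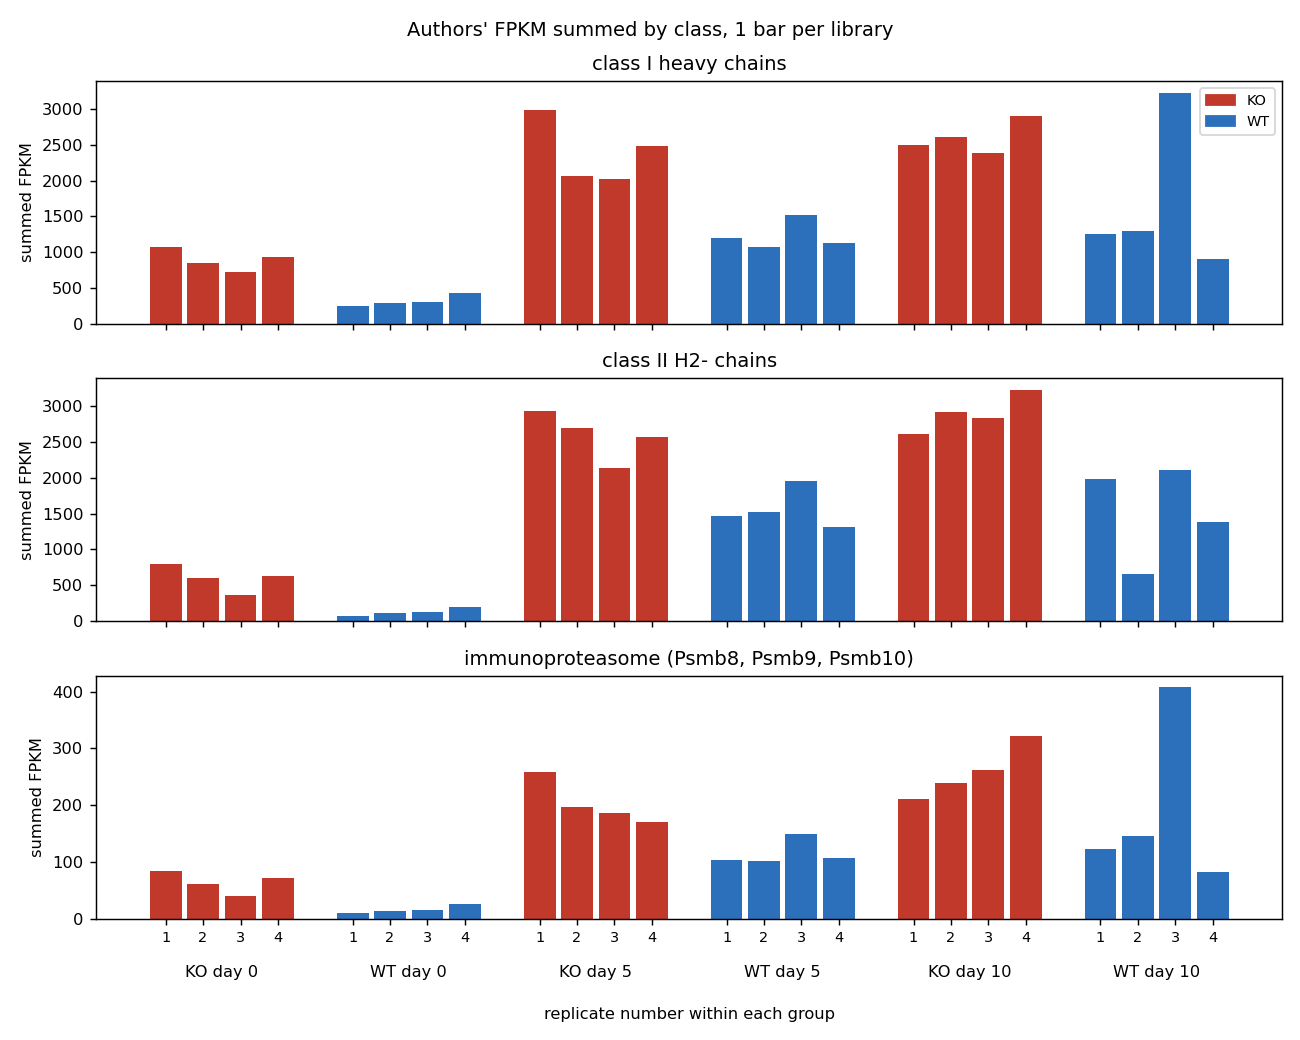
The authors' FPKM summed over class I heavy chains, class II H2- chains and the immunoproteasome, 1 bar per library in replicate order, KO in red and WT in blue. WT day 10 replicate 3 is the tallest class I bar at 3228, and WT day 10 replicate 2 is the shortest class II bar under obstruction at 658.

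KO against WT at day 10 gave 2 called members of 35, beside 1.41% of all genes (0.139% higher and 1.27% lower). H2-Q2, a class I-like gene of the Qa region, was higher in KO, with 3.82, 3.42, 4.14 and 6.26 CPM in KO and 1.85, 0.964, 2.06 and 2.33 in WT, 1.29 ± 0.28 (adjusted p = 0.0198). H2-Q10, which encodes a secreted class I chain, was lower, with 1.65, 1.71, 1.45 and 1.71 CPM in KO and 1.61, 24.6, 9.98 and 1.06 in WT, -2.51 ± 0.62 (adjusted p = 0.0436). Only WT replicates 2 and 3 lay above the KO libraries for H2-Q10, and it was not called when either was left out or with the replicate number as a block, which left 1 call. The median log2 difference was 0.39 in class I, 0.79 in class II and 0.23 in processing, and -0.02 over all genes. KO libraries lay above all WT libraries for 7 members, as in 1.49% of all genes, and 6 of these belong to class II (H2-Aa, H2-Ab1, H2-Eb1, Cd74, H2-Oa and H2-Ob). Of these, Cd74 had 0.90 ± 0.32 (adjusted p = 0.177) and H2-Aa 0.79 ± 0.30 (adjusted p = 0.217). Without WT replicate 3 the count of calls was 14, all higher in KO: 7 of class I, 2 of class II and 5 of processing. It was 7 without WT replicates 2 and 3, and 0 without WT replicate 2 or without any 1 of the 4 KO day 10 libraries. It was 1 without any KO day 5 library, without KO day 0 replicate 1, 2 or 4, and without replicate 1, 2 or 4 of WT day 0 or 1, 2 or 3 of WT day 5. None of the pan leukocyte genes was called at day 10, where their median log2 difference was -0.74, and 4 of 4 neutrophil genes were lower in KO. The neutrophil difference lay mostly in WT replicates 2 and 3, where the list summed to 3685 and 6349 CPM. It summed to 26.3 and 25.4 CPM in WT replicates 1 and 4, and to 10.6 to 21.7 in KO.

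The genotypes' responses were compared directly by the interaction. At day 10 the response was smaller in KO for 5 members, beside 3.25% of all genes called and 3.12% with a smaller response: B2m (-1.66 ± 0.43, adjusted p = 0.0363), H2-M3 (-1.49 ± 0.38, adjusted p = 0.033), Cd74 (-1.82 ± 0.45, adjusted p = 0.027), H2-DMa (-1.79 ± 0.42, adjusted p = 0.0185) and H2-DMb1 (-1.46 ± 0.35, adjusted p = 0.0226). Leaving out single libraries gave 1 to 18, with 18 without WT day 10 replicate 4, 9 without WT day 10 replicate 1 and 8 without KO day 0 replicate 3 or WT day 10 replicate 2. It gave 3 without KO day 0 replicate 4, 2 without WT day 0 replicate 3, WT day 10 replicate 3, KO day 0 replicate 2 or KO day 10 replicate 3, and 1 without KO day 0 replicate 1, KO day 10 replicate 1 or 2, or WT day 0 replicate 1 or 2. Without WT day 10 replicates 2 and 3 it gave 2, with the replicate block 4 (B2m was lost), and no member passed when only the 4 groups concerned were fitted. At day 5 no member passed, beside 0.564% of all genes, with 18 of 35 at an unadjusted p under 0.05 and 4 called by DESeq2. The median interaction at day 5 was -0.97 in class I, -1.41 in class II and -1.02 in processing. The lowest adjusted p at day 5 was that of H2-DMb1, -1.51 ± 0.35 (adjusted p = 0.0513). The day 5 count was 12 without WT day 10 replicates 2 and 3, 4 without either of them, 3 without WT day 5 replicate 4, 2 without WT day 0 replicate 4, WT day 10 replicate 4, KO day 0 replicate 3 or KO day 5 replicate 1, and 1 without KO day 10 replicate 4 or WT day 10 replicate 1. Leukocyte markers had smaller responses in KO as well. At day 5 these were Ccr7 (-3.10 ± 0.46, adjusted p = 0.00471) and Itgax (-2.48 ± 0.39, adjusted p = 0.00815) of 8 dendritic cell genes, Cx3cr1 (-1.19 ± 0.26, adjusted p = 0.0396) of 10 macrophage genes and Cd86 (-2.12 ± 0.44, adjusted p = 0.0289) of 5 costimulatory genes. At day 10 they were 4 of 4 pan leukocyte, 9 of 10 macrophage, 2 of 4 neutrophil, 2 of 6 T cell and 2 of 8 dendritic cell genes. WT day 10 replicates 2 and 3 held much of the WT macrophage level, at 5186 and 8338 CPM against 1625 and 1497 in replicates 1 and 4. Without replicates 2 and 3, Itgax (-1.97, adjusted p = 0.00167) and Cx3cr1 (-1.19, adjusted p = 0.0179) were called at day 10. Ccr7 (-1.98, adjusted p = 0.0534) and Cd86 (-1.45, adjusted p = 0.0596) were then not called. The part of leukocytes in the interactions was not tested. These interactions share their day 0 libraries with the day 0 comparison, where KO was higher.

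From day 5 to day 10 few members moved. In KO none was called, beside 0.0199% of all genes, and 3 members had an unadjusted p under 0.05. DESeq2 called 0 there too. In WT, 4 class I members rose, beside 10.8% of all genes called (7.86% higher and 2.93% lower): H2-M3 (0.90 ± 0.26, adjusted p = 0.0309), H2-Q5 (1.70 ± 0.41, adjusted p = 0.0131), H2-Q10 (2.61 ± 0.62, adjusted p = 0.0131) and Nlrc5 (1.55 ± 0.48, adjusted p = 0.0435). The median was 0.58 in class I, 0.73 in processing and 0.02 in class II. With the replicate number as a block 3 rose and 1 fell, and Nlrc5 was not called (adjusted p = 0.0658). Only 1 was called without WT day 10 replicate 2 or replicate 3, none without both, 9 without WT day 10 replicate 1, 10 without WT day 10 replicate 4 and 2 without any 1 of WT day 5 replicates 1, 2 and 3.

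Per length, class II lay below class I in all 8 day 0 libraries and above it in 7 of 8 obstructed KO and 6 of 8 obstructed WT libraries. In the authors' FPKM, the class I heavy chains summed to 895 ± 146 in KO and 321 ± 77.5 in WT at day 0 (mean ± SD, n = 4), and the class II H2- chains to 599.5 ± 181 in KO and 128 ± 52.5 in WT. The ratio of class II to class I was 0.753, 0.706, 0.507 and 0.668 in the day 0 KO libraries, against 0.277, 0.407, 0.404 and 0.457 in WT. No WT library reached the lowest KO ratio. At day 5 the ratio was 0.982, 1.31, 1.05 and 1.03 in KO and 1.21, 1.42, 1.28 and 1.17 in WT. At day 10 it was 1.05, 1.12, 1.18 and 1.11 in KO and 1.57, 0.507, 0.654 and 1.52 in WT, where replicates 2 and 3 were the low ones. KO and WT overlapped at day 5 and day 10, and these ratios are given with no test. Class I FPKM is uncertain, since H2-Q6, H2-Q7, H2-Q9 and H2-T9 had FPKM above 0 but no counts.

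Within class I, H2-K1 and H2-D1 together took 66.5 ± 1.89% of the heavy chain FPKM in KO and 52.5 ± 3.54% in WT at day 0. At day 5 the share was 75.9 ± 1.42% in KO and 75.4 ± 2.37% in WT. B2m over the sum of its heavy chains was 0.862 to 1.11 in KO and 0.605 to 0.687 in WT at day 0. Cd74 relative to the class II chains was 1.04 to 1.38 in KO and 0.763 to 0.813 in WT at day 0. Neither ratio overlapped between the genotypes at day 0. Shares and ratios that use the class I FPKM carry the uncertainty given above. By mean FPKM at day 0 the order in KO was B2m, Cd74, H2-K1, H2-D1, H2-Ab1, H2-Aa and H2-Eb1, and among neighbours in this order only Cd74 (1113, 714, 442 and 654) and H2-K1 (413, 324, 248 and 366) did not overlap over the 4 libraries.

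The immunoproteasome was also set against its constitutive counterparts. Psmb8 over Psmb5 was 0.309, 0.261, 0.132 and 0.288 in KO and 0.0236, 0.0400, 0.0356 and 0.0580 in WT at day 0, as a ratio of FPKM. Psmb9 over Psmb6 was 0.278, 0.241, 0.144 and 0.229 in KO and 0.0341, 0.0373, 0.0487 and 0.0694 in WT. Psmb10 over Psmb7 was 0.180, 0.138, 0.0906 and 0.207 in KO and 0.0350, 0.0482, 0.0526 and 0.0751 in WT. None of the 3 ratios overlapped between the genotypes at day 0. At day 5 Psmb8 over Psmb5 was 0.683, 0.464, 0.630 and 0.588 in KO and 0.239, 0.236, 0.274 and 0.286 in WT. In 1 library, WT day 10 replicate 3, all 3 ratios were above 1, with 1.81 for Psmb8 over Psmb5. Psmb8 exceeded Psmb5 in 1 other library, KO day 10 replicate 4, at 1.30.

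**Figure D5:**
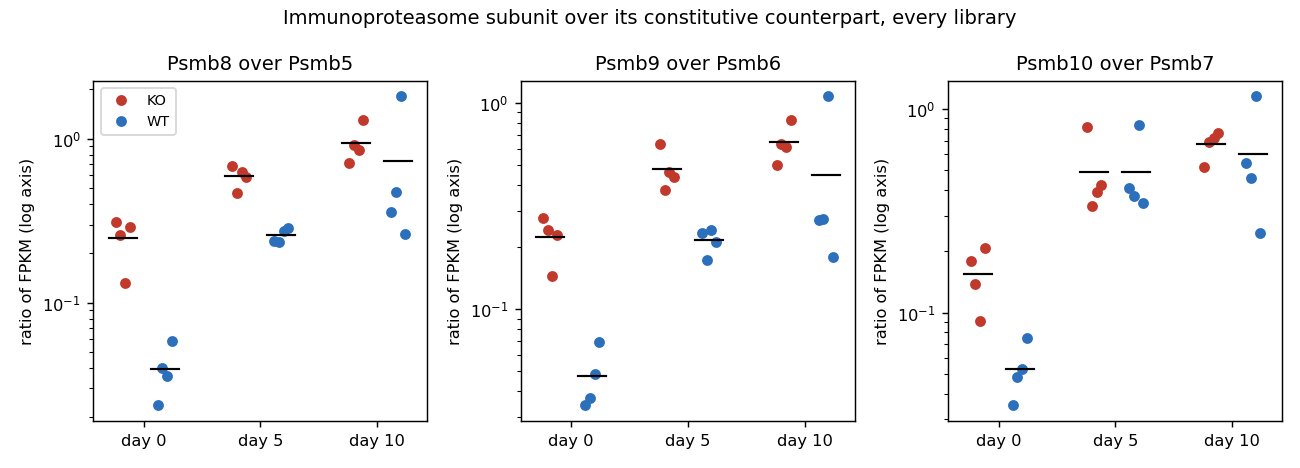
Ratio of FPKM of each immunoproteasome subunit over its constitutive counterpart in every library, on a log axis, KO in red and WT in blue, with a line at the mean of 4. At day 0 KO and WT do not overlap in any of the 3 ratios, and WT day 10 replicate 3 is the highest library in each.

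How far the unobstructed KO kidney lay towards the obstructed WT kidney differed by class. The KO day 0 mean lay between the WT day 0 and WT day 5 means for 7 of 16 class I, 9 of 11 class II and 4 of 6 processing genes. The median KO day 0 level was 128% of the WT day 5 level in class I, 64.6% in class II and 87.4% in processing. The class I median includes genes that had not risen in WT by day 5, such as H2-Bl (log2 -1.01), H2-T22 (-0.58) and H2-T23 (0.05). For such genes the percentage gives no position towards obstruction. Among class I genes that had risen in WT, B2m, Nlrc5 and H2-T10 had a KO day 0 mean above their WT day 5 mean. The libraries of these groups overlapped for each of them. H2-K1, H2-D1, H2-M3, H2-Q4, H2-K2 and H2-M2 had risen in WT too, and their KO day 0 means lay below their WT day 5 means. The median thus does not mean that class I as a whole exceeded the obstructed WT level in KO. All members together took 0.322 to 0.639% of counts in KO and 0.0950 to 0.169% in WT at day 0.

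The remaining 19 members did not pass the filter, 18 of class I and H2-Ea-ps of class II. Of these, 10 had no count in any library and the other 9 at most 8 counts in a library. For some of them the deposited counts and FPKM differ. H2-Q6, H2-Q7, H2-Q9 and H2-T9 had 0 counts in all 24 libraries but FPKM values above 0. H2-Q6 had FPKM of 32, 29.8, 22.7 and 40.5 in KO and 7.68, 7.27, 5.76 and 13.8 in WT at day 0. H2-Q9 had FPKM of 29.97, 25.8, 15.7 and 24.1 in KO and 4.46, 3.89, 2.61 and 5.03 in WT at day 0. On log2(FPKM + 1) with limma over 13588 genes, H2-Q9 was higher in KO at day 0 by 2.31 (adjusted p = 0.000753), H2-Q6 by 1.78 (adjusted p = 0.00207) and H2-Q1 by 1.06 (adjusted p = 0.0043). H2-Q7 (1.04, adjusted p = 0.135) and H2-T9 (0.33, adjusted p = 0.401) did not pass. In GENCODE transcripts 68% of the 50-base stretches of H2-Q6 and 73.6% of those of H2-Q7 were unique, and how the counting treated shared reads is not stated.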

How the data were processed

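Kidney RNA of 24 libraries was extracted with TRIzol and 1 ug went into TruSeq stranded mRNA libraries for a NextSeq500, per the labels' protocols. The submitters' processing notes name bcl2fastq 2.16, STAR 2.5, Cufflinks and mm9. The authors deposited whole-number counts for 23955 symbols and FPKM values for 23953. The counting tool, its annotation and use of strand are not given in the sources used here, so overlapping genes and near-identical H2- copies are uncertain. Replicates within groups differed beyond sampling noise in all 36 pairs.

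All tests used the deposited counts with edgeR 4.0.16 (quasi-likelihood, robust, TMM). Genes were kept by a minimum count of 10 and a total of 15, which left 15080. A model of 6 group means (18 residual degrees of freedom) gave 11 comparisons, with Benjamini-Hochberg adjustment over all genes and a threshold of 0.05. The SE is the log2 fold change over the square root of F. FPKM was used for levels between genes. The k-mer share counts 50-base stretches unique to a gene in GENCODE transcripts of GRCm38, and no mm9 genome was used. The scripts were tested on simulated data. The members and lists were chosen with earlier results of these data known. Values in every library are given for H2-K1, H2-D1, B2m, Nlrc5, H2-Aa, H2-Ab1, H2-Eb1, Cd74, Ciita, Tap1, Psmb8 and Psmb9, and for up to 4 further members per class with the lowest adjusted p between genotypes or their responses. Other tested members are named by fold change, and H2-T23, H2-M2, H2-Q2 and H2-Q10 were given library values after these were seen.

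Alternatives were RLE factors, no filter, a filter of CPM 1 or more in 8 libraries, only the groups compared, a replicate block, DESeq2 1.42.0, limma 3.58.1 on log2(FPKM + 1) or log2(FPKM + 0.1) with a filter of FPKM 1 or more in 4 libraries or none, each library left out, and WT day 10 replicates 2 and 3 left out together. Equal replicate numbers deviated together (all 4 correlations over 0.1) in KO against WT at day 10 (0.141 to 0.306) and in day 10 against day 5 in WT (0.105 to 0.361), and not in the other 7 comparisons of 2 groups. The highest single correlation, 0.591, was in KO against WT at day 5, where 2 of 4 were over 0.1. Day 5 against day 0 in WT also had 2 of 4 over 0.1, and day 10 against day 5 in KO had 1 of 4. The labels do not say what a number shares.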

Additional observations from a re-analysis of the deposited data

Results flagged for a closer look

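In 17 of 138 groups of 4 libraries (12.3%) 1 library lay far from the others by Dixon's ratio. Chance flags about 1 in 20 independent groups. These groups are not independent, since the members were measured in the same libraries and some were chosen by low adjusted p. The 12.3% therefore cannot show an excess over chance. WT day 10 replicate 3 did so for 10 members, with 2817 CPM for H2-K1, 225 for Nlrc5, 351 for Tap1, 297 for Psmb8, 117 for Psmb9, 13.7 for H2-T10, 23.3 for H2-Q5, 6.41 for H2-Eb2, 245 for Tap2 and 715 for Tapbp. WT day 5 replicate 3 was high for H2-DMa (85.6 CPM) and Psmb10 (87.5). WT day 0 replicate 4 was high for Nlrc5 (13.6 CPM) and H2-DMb1 (23.7). KO day 10 replicate 4 was high for H2-Ab1 (1288 CPM), H2-DMb2 (56.9) and Tap2 (180.4).

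The response at day 10 differed between the genotypes for B2m (-1.66 log2, KO minus WT), H2-M3 (-1.49), Cd74 (-1.82), H2-DMa (-1.79) and H2-DMb1 (-1.46), each by the interaction test. These calls depended on the libraries and the processing: the count ran from 1 to 18 with 1 library left out. No member passed when only the groups compared were fitted. The interactions also share their day 0 libraries with the day 0 comparison, where KO was higher.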

How the results depend on the processing

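KO against WT at day 0 gave 21 to 28 called members in every alternative that kept all libraries, against 23, all higher in KO, and 17 to 25 with 1 library left out. KO against WT at day 5 (0 called) gave 1 with the replicate block, 2 with only the groups compared, 3 with DESeq2, 4 on log2(FPKM + 1), 3 on log2(FPKM + 0.1), 2 with no FPKM filter and 8 without WT day 10 replicates 2 and 3. With 1 library left out it gave 0 to 5. KO against WT at day 10 (2 called) gave 1 with the replicate block, 0 with only the groups compared, 0 on log2(FPKM + 0.1), 7 without WT day 10 replicates 2 and 3, and 0 to 14 with 1 library left out. Day 5 against day 0 in KO (21) gave 32 on both FPKM scales with a filter and 13 to 23 with 1 library left out.

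Day 10 against day 5 in WT (4) gave 0 with only the groups compared, 7 with DESeq2, 2 on log2(FPKM + 0.1), 1 with no FPKM filter, 0 without WT day 10 replicates 2 and 3, and 1 to 10 with 1 left out. The day 5 interaction (0) gave 1 with the CPM filter, 1 with the replicate block, 10 with only the groups compared, 4 with DESeq2, 1 on log2(FPKM + 0.1), 12 without WT day 10 replicates 2 and 3, and 0 to 4 with 1 left out. The day 10 interaction (5) gave 0 with only the groups compared, 10 with DESeq2, 0 on log2(FPKM + 1), 1 on log2(FPKM + 0.1), 0 with no FPKM filter, 2 without WT day 10 replicates 2 and 3, and 1 to 18 with 1 left out. With 1 library left out, day 5 against day 0 in WT gave 26 to 29, day 10 against day 0 gave 21 to 29 in KO and 31 to 32 in WT, and day 10 against day 5 in KO gave 0. For the 23 members whose values are given by library at each day, no called direction was reversed in any alternative run; the other members were not compared one by one. The cause of these shifts was not tested. Low counts limit H2-Eb2, H2-Bl, H2-T22, H2-Q10, H2-Oa and H2-M2, all under 2 CPM in every day 0 library. H2-DMb2 was under 2 CPM in every WT day 0 library.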

Other observations

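Neighbouring groups of genes were read from the same fit. A fixed list of class I-like genes outside the H2- symbols held 5 that passed the filter. Of these, Hfe, a regulator of iron uptake, was higher in KO at day 0 by 0.53 ± 0.15 (adjusted p = 0.0486). Fcgrt, the neonatal Fc receptor, did not pass (-0.33 ± 0.17, adjusted p = 0.368). Cd1d1 and Mr1, also class I-like, stood in the list of other antigen presentation genes. They did not pass at day 0 (0.52 and 0.29). In WT they rose by day 10, by 2.75 ± 0.33 (adjusted p = 5.10e-07) and 0.99 ± 0.19 (adjusted p = 0.000113). Under obstruction in WT at day 10, Hfe rose by 0.99 ± 0.15 (adjusted p = 8.18e-06), Mill2 by 1.09 ± 0.25 (adjusted p = 0.000618) and Procr, the endothelial protein C receptor, by 3.85 ± 0.50 (adjusted p = 1.41e-06), while Fcgrt (-1.29 ± 0.17, adjusted p = 1.87e-06) and Azgp1 (-3.07 ± 0.90, adjusted p = 0.0051) fell. These changes were not confined to WT: Cd1d1, Mr1, Hfe, Mill2 and Procr also rose in KO by day 10, and Fcgrt and Azgp1 also fell. Among all genes tested, 37.8% rose and 30.3% fell by day 10 in WT. In KO 28.3% rose and 26% fell. Of 5 costimulatory genes, Cd86 was higher in KO at day 0 by 1.64 ± 0.33 (adjusted p = 0.00544). All 5 rose in WT by day 10, among them Icosl by 1.46 ± 0.22 (adjusted p = 6.10e-06), and 3 rose in KO (Cd86, Cd40 and Icosl). The day 10 response was smaller in KO for Cd86 (-2.12 ± 0.44, adjusted p = 0.0104), Cd274 (-3.82 ± 0.99, adjusted p = 0.0357) and Procr (-2.54 ± 0.67, adjusted p = 0.0371). The costimulatory genes summed to 72.4, 88.3, 94.4 and 122 CPM in the day 10 KO libraries and 77.8, 151, 492 and 71.4 in the WT libraries, where replicates 2 and 3 were the highest. Cd80 alone had 0.882, 1.42, 1.45 and 2.05 CPM in KO and 0.996, 31, 14.6 and 1.48 in WT. Without WT day 10 replicates 2 and 3, none of the 3 smaller responses was called: Cd86 had -1.45 (adjusted p = 0.0596), Cd274 -0.49 (adjusted p = 0.925) and Procr -0.72 (adjusted p = 0.623). The WT rise of Cd274, 3.97 ± 0.76 with all libraries, was then not called (0.66, adjusted p = 0.0506), while the other 4 costimulatory genes, Hfe (0.85), Mill2 (1.26) and Procr (2.04) were called higher and Fcgrt (-0.91) and Azgp1 (-2.13) lower.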
